A study of Mus musculus with 12 samples.

Results

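Genes for the lysosome were examined in mouse bone marrow-derived macrophages (BMDMs). They were chosen by symbol as 45 genes for lysosomal enzymes, other soluble and membrane proteins of the lysosome, its proton pump and the regulators Tfeb and Tfe3. Of these, 43 had a value among the 19057 genes read from the arrays, and Cd68 and Atp6v0c were not analysed here. The 43 comprised 18 hydrolases, 3 soluble proteins that are not hydrolases, 8 membrane proteins, 12 subunits or accessory proteins of the proton pump and 2 regulators. Where several probes named a gene alone, the one of highest mean log2 signal stood for it. For 42 of the 43 genes this probe was detected (detection p under 0.01) in every array of some group.

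BMDMs of Balb/c mice, grown in 20 ng/ml M-CSF, were compared after 6 h on 12 Illumina expression arrays. Of the 4 treatments, each on 3 arrays, the first was Kdo2-lipid A (KLA, the Toll-like receptor 4 ligand of lipopolysaccharide) plus human beta-defensin 3 (hBD3, an antimicrobial peptide). The others were KLA at 50 ng/ml, hBD3, and no agent (untreated cells). The labels give hBD3 at 5 mg/ml where the methods give micrograms per ml, state no dose for the combination, and carry the word HBD3 in the titles of KLA replicates 2 and 3, whose treatment label is KLA. Each treatment was run on separate mice according to the study, but neither the labels nor the study tie a replicate number to a mouse.

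Lysosomes are acidic compartments in which hydrolases break down the proteins, lipids and glycans that macrophages engulf or receive by autophagy. The acidity is made by the V-ATPase, a rotary pump whose cytosolic V1 sector splits ATP and whose membrane V0 sector passes protons. Tfeb and Tfe3 are related transcription factors known to bind the CLEAR element, an E-box found near many lysosomal genes, and to raise the expression of those genes.

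The arrays differed in brightness along with treatment. Of 45281 probes, 12543 to 14644 were detected in arrays of KLA plus hBD3, 12363 to 13571 with KLA, 14353 to 14980 with hBD3 and 14610 to 15629 in untreated cells. Mean signal before normalization spanned 177 to 241 with KLA plus hBD3, 185 to 230 with KLA, 255 to 278 with hBD3 and 260 to 365 in untreated cells. All 10 measured macrophage markers were detected, and their mean log2 signal was 10.73 to 10.88 in arrays of KLA plus hBD3, 9.88 to 10.12 with KLA, 10.78 to 10.99 with hBD3 and 10.72 to 10.97 in untreated cells. Of these 10 markers, 2 were higher and 5 lower with KLA than in untreated cells, and 5 were higher and 1 lower with KLA plus hBD3 than with KLA (adjusted p under 0.05 in limma). Of the 9 osteoclast markers, 5 were detected in no array, as were 7 of 9 neutrophil and 5 of 8 dendritic cell markers. Detected in every array of some group were 4 osteoclast markers, Ctsk, Dcstamp, Mmp9 and Nfatc1. Of the 9 osteoclast markers, 3 were called lower and 1 higher with KLA than in untreated cells. The neutrophil markers averaged 6.21 to 6.43 with KLA and 5.96 to 5.99 in untreated cells, with 2 called higher, and the dendritic cell markers 6.05 to 6.20 and 5.84 to 5.93, with 1 called higher. Of the 12 stromal markers, 4 were detected nowhere and 6 in every array of some group, and 1 was called higher with KLA. The 12 stromal markers averaged 8.08 in the third hBD3 array, while hBD3 replicates 1 and 2 gave 6.61 and 6.25. The part of these differences in the values below was not tested, and in bulk RNA a smaller share of cells expressing a gene cannot be told apart from less of its RNA per cell.

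Promoters are shown because the list contains the regulators Tfeb and Tfe3 beside genes known as their targets. RefSeq promoter windows of 300 bases (build GRCm38.p6), which run from 250 bases before to 50 after each start, were held for 36 of the 45 genes. There was no entry for Ctsb, Galns, Asah1, Npc1, Tpcn1, Atp6v1b2, Atp6v1c1, Atp6v1h and Atp6v0d2. Both motifs searched, the E-box CACGTG and the core of the CLEAR element TCACGTGA, read the same on either strand, and every TCACGTGA contains a CACGTG. The E-box was in a window of 12 of the 36 genes (33.3%), against 8.09% of all 27025 genes with a window, and the longer core in 7 of the 36 (19.4%), against 1.12%. The windows of the 3 genes that hold the core and were lower with KLA are given whole, 5′ to 3′, with the core in capitals.
Atp6v1a (chr16:44139210-44139509, minus strand): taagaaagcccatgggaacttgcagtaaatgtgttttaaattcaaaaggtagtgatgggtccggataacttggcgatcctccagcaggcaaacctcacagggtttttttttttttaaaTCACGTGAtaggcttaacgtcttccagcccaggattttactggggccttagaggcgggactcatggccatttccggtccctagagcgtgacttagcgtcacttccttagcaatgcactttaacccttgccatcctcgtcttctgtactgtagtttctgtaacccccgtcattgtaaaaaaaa
Ctsa (chr2:164833523-164833822, plus strand): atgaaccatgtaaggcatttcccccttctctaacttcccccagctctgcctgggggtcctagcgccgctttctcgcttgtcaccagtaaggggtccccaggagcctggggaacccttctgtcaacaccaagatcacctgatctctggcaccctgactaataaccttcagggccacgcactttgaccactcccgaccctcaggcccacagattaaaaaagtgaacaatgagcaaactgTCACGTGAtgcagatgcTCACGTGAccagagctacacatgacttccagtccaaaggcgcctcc
Atp6v0e (chr17:26676146-26676445, plus strand): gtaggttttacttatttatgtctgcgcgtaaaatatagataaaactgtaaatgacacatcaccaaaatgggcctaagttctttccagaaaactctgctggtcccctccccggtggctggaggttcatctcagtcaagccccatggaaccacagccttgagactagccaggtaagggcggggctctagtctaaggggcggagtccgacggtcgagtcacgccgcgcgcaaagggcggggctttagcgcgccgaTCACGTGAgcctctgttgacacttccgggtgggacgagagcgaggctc

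The other 4 genes with the core were not called with KLA, and the 40 bases around their first copy are given in the same way.
Gla (chrX:134601210-134601249, minus strand): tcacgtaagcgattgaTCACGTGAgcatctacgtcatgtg
Ctsd (chr7:142387903-142387942, minus strand): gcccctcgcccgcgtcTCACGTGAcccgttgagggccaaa
Mcoln1 (chr8:3500457-3500496, plus strand): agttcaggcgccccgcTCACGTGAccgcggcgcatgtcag
Atp6v0d1 (chr8:105566045-105566084, minus strand): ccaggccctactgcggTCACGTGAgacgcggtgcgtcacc

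Ctsa and Gla each held 2 copies of the core, and the other 5 genes held 1. The match is a description of these letters and not of a bound site. Among genes with both a window and a value, 3 of 7 with the core were lower with KLA (median log2 change -0.72, range -1.80 to -0.15), and 17 of 27 without it (median -0.57, range -1.58 to 0.67). Tfeb and Tfe3 held neither motif in the windows given for them.

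Lysosomal genes were mostly lower in macrophages given KLA than in untreated cells. Of the 43 genes, 25 were lower and 1 was higher at an adjusted p under 0.05 in limma, against 11.6% lower and 9.70% higher of all 19057 genes. Their median log2 change was -0.63, against 0.02 over all genes. Because most of the 43 genes were bright, they were also set beside the 5888 genes with a mean log2 signal of at least 7, of which 27.7% were lower (median -0.07). Of the 38 lysosomal genes as bright as that, 23 were lower (median -0.64). All 3 KLA arrays lay below all 3 untreated arrays for 27 of the 43 genes and above them for 2, against 16.9% and 17.4% of all genes.

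The scaling of the arrays changed this split. When each array was centred on its median signal instead of being quantile normalized, 31 lysosomal genes were lower with KLA and 0 higher, with a median of -0.92. Under that scaling 49.7% of the genes with a mean log2 signal of at least 7 were lower (median -0.65), against 27.7% under quantile normalization. Of all called genes 14.2% were higher, against 45.6% under quantile normalization.

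**Figure D1:**
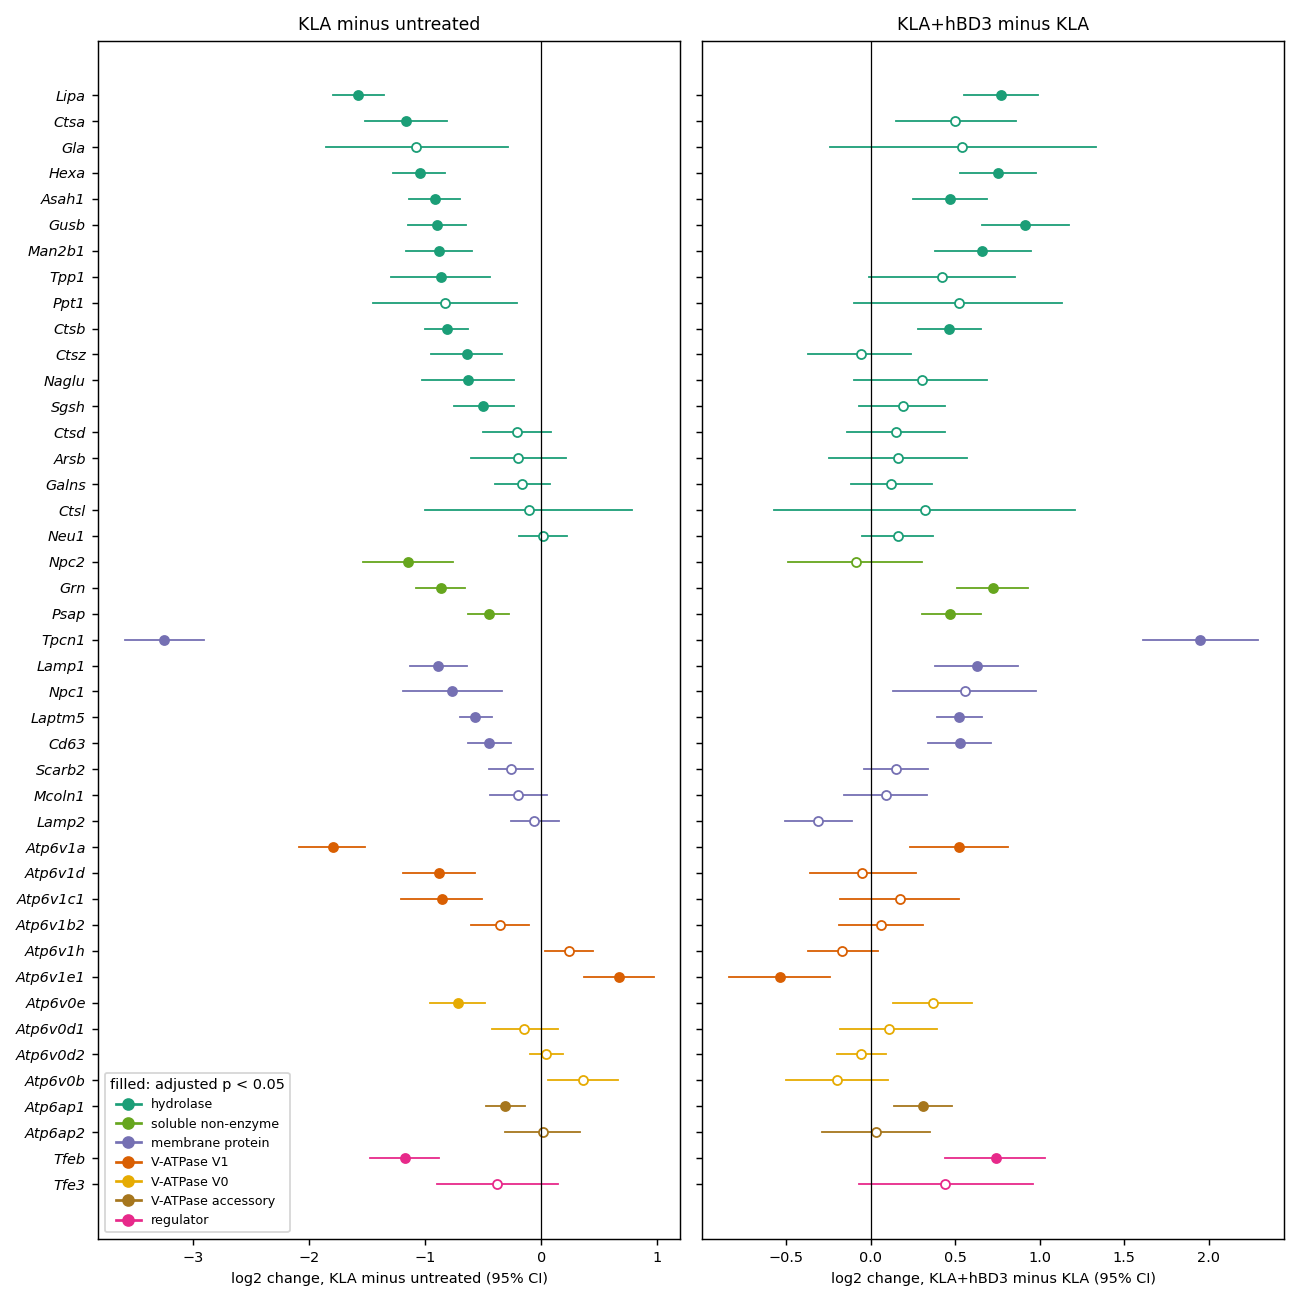
Log2 change of each of the 43 lysosomal genes with its 95% confidence interval, as KLA minus untreated (left) and KLA plus hBD3 minus KLA (right), with 3 arrays per group and genes coloured by class. Filled points passed an adjusted p of 0.05; on the left 25 filled points lie below 0 and 1 above, and on the right 15 lie above 0 and 1 below.

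With hBD3 present along with KLA, fewer of the genes were lower. KLA plus hBD3 left 11 of the 43 genes lower than in untreated cells and 0 higher, against 3.44% and 3.11% of all genes, with a median log2 change of -0.22. Among the bright genes 8.76% were lower, and 11 of the 38 bright lysosomal genes were. The count of 11 fell to 5 without KLA plus hBD3 replicate 2 or without untreated replicate 3. It was 7 without KLA plus hBD3 replicate 1 or untreated replicate 2. Under median centring it was 28, where 45.2% of bright genes were lower (median -0.61). Set against KLA alone, KLA plus hBD3 gave 15 higher and 1 lower, against 5.85% and 4.97% of all genes, with a median of 0.32. Of the bright genes 16.3% were higher in that comparison, and of the 38 bright lysosomal genes 14 were. Only Tpcn1 of the 15 passed under median centring, where the median of the 43 was 0.20 and that of the bright genes 0.02.

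Comparisons that share arrays are given side by side here and are not independent of each other. With hBD3 on its own, 0 of the 43 genes passed in either direction, and 9 had an unadjusted p under 0.05 in limma. That unadjusted threshold was met by 1842 of all 19057 genes and by 1160 of the 5888 bright genes. Of the 38 bright lysosomal genes, 6 met it. Over all genes 0.00525% passed, and the median change of the 43 was -0.02. The smallest p was that of Tfeb, at -0.53 ± 0.14 (SE), with an adjusted p of 0.353. Neu1 was 0.30 ± 0.10 above its untreated mean, with 10.64, 10.68 and 10.66 in hBD3 arrays against 10.36, 10.38 and 10.33 in untreated arrays, and an adjusted p of 0.48.

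The effect of KLA was also measured between cells that all had hBD3. Compared with hBD3 alone, KLA plus hBD3 left 8 of the 43 genes lower and 0 higher, against 4.70% and 3.26% of all genes (median -0.11), and 7 of the 38 bright ones lower, against 11.5% of bright genes. Without KLA plus hBD3 replicate 1 or 2, or without hBD3 replicate 1 or 2, the count was 5. The KLA effects without and with hBD3 share no array. Both lay below 0 for 29 genes and above 0 for 4, and their signs differed for 10. Of the 25 genes lower with KLA alone, 21 lay below 0 with hBD3 and 7 of them passed.

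The difference between these KLA effects was tested as an interaction, which is the effect of KLA with hBD3 minus its effect without, so that a positive value means a smaller fall or a larger rise in the presence of hBD3. It was higher for 11 of the 43 genes and lower for 0, against 2.81% and 2.69% of all genes, with a median of 0.39. Among bright genes 8.31% were higher, and 10 of the 38 bright lysosomal genes were. All 11 were among the 25 genes lower with KLA. Both results use the same KLA and untreated arrays, so this overlap is not independent. Under median centring 2 were higher, Tpcn1 and Tfeb, which also passed in the other 19 settings tried for the interaction.

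**Figure D2:**
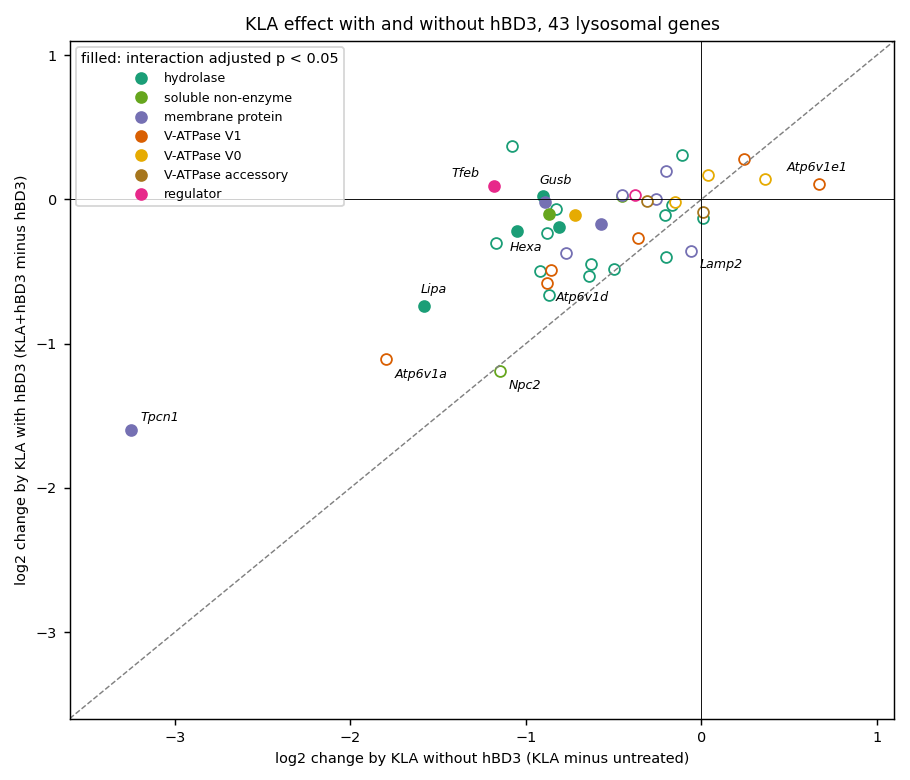
Log2 change by KLA for each of the 43 genes, without hBD3 (KLA minus untreated, x axis) and with it (KLA plus hBD3 minus hBD3, y axis), coloured by class and filled where the interaction passed. The dashed line marks equal change; Tpcn1 lies at -3.25 and -1.60, Lipa at -1.58 and -0.74, and Npc2 near the line at -1.15 and -1.19.

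Hydrolases were the largest class, and 11 of 18 were lower with KLA and 0 higher, with a median of -0.82. Over all genes 11.6% were lower and 9.70% higher. Of the 18 hydrolases 15 were bright, and 27.7% of bright genes were lower. Lipa, the acid lipase that frees cholesterol and fatty acids from lipoprotein lipids, showed the largest fall of the hydrolases. Its log2 signal was 12.38, 12.26 and 12.65 with KLA plus hBD3, 11.74, 11.58 and 11.66 with KLA, 13.08, 13.18 and 13.25 with hBD3 and 13.22, 13.15 and 13.35 in untreated cells. KLA plus hBD3 thus lay between KLA and the remaining arrays without overlap. Lipa fell by 1.58 ± 0.10 with KLA (SE; 2.99-fold, adjusted p = 7.02e-07) and fell by 0.74 ± 0.10 with KLA plus hBD3 against hBD3 (adjusted p = 0.00114). The interaction was 0.84 ± 0.14 (adjusted p = 0.00722).

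Ctsa, which encodes cathepsin A and shields the sialidase Neu1 from breakdown, gave 11.94, 12.43 and 12.54 with KLA plus hBD3, 11.59, 11.92 and 11.91 with KLA, 12.34, 12.68 and 12.81 with hBD3 and 13.06, 12.85 and 13.01 in untreated cells. It fell by 1.17 ± 0.16 with KLA (adjusted p = 0.000297). The change from KLA to KLA plus hBD3 was 0.50 ± 0.16, which did not pass (adjusted p = 0.107), although the arrays did not overlap. Neu1 itself, the sialidase that trims glycans, was at 0.01 ± 0.10 with KLA (95% CI -0.19 to 0.22).

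Among glycan-degrading enzymes, Gusb (beta-glucuronidase) was lower with KLA. Its signal was 12.56, 12.75 and 13.02 with KLA plus hBD3, 11.94, 11.93 and 11.72 with KLA, 12.71, 12.69 and 12.87 with hBD3 and 12.90, 12.69 and 12.69 in untreated cells. All 3 KLA arrays lay below all others, and the 3 other groups overlapped. Gusb fell by 0.90 ± 0.12 with KLA (adjusted p = 0.00017) and was 0.91 ± 0.12 higher with KLA plus hBD3 than with KLA (adjusted p = 0.000413). Its other bright probes ranged from -1.77 to -0.23 with KLA, and taking the mean of all its detected probes ended the calls for KLA plus hBD3 against KLA and for the interaction.

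Hexa, the alpha subunit of beta-hexosaminidase, showed 12.55, 12.64 and 12.67 with KLA plus hBD3, 11.89, 11.68 and 12.03 with KLA, 12.84, 12.74 and 12.95 with hBD3 and 12.77, 12.93 and 13.06 in untreated cells. It fell by 1.05 ± 0.10 with KLA (adjusted p = 1.84e-05), and KLA plus hBD3 was 0.75 ± 0.10 above KLA (adjusted p = 0.000688) and -0.30 ± 0.10 from untreated cells (adjusted p = 0.156). Man2b1, the lysosomal alpha-mannosidase, fell by 0.88 ± 0.13 with KLA and was 0.66 ± 0.13 higher with KLA plus hBD3 than with KLA (adjusted p = 0.000483 and 0.00791). Naglu and Sgsh, which take part in heparan sulfate breakdown, fell by 0.63 ± 0.18 and 0.50 ± 0.12 with KLA (adjusted p = 0.0348 and 0.0109). The Naglu call was lost in 9 of 21 other settings, among them leaving out KLA replicate 1 or 2 or untreated replicate 2 or 3 (highest adjusted p over all settings 0.129). Sgsh was not detected in any array of KLA plus hBD3 or KLA and averaged 5.98 and 5.80 there, against 6.47 with hBD3 and 6.29 in untreated cells, so that its fall with KLA was at least 1.02-fold.

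Of the proteases, Ctsb, a cysteine protease, fell by 0.81 ± 0.08 with KLA (adjusted p = 3.03e-05). It averaged 13.32 ± 0.09 with KLA plus hBD3, 12.86 ± 0.05 with KLA, 13.51 ± 0.14 with hBD3 and 13.67 ± 0.09 in untreated cells (SD, n = 3). KLA plus hBD3 lay between KLA and untreated cells, 0.46 ± 0.08 above KLA (adjusted p = 0.00479) and -0.35 ± 0.08 from untreated cells (adjusted p = 0.0382). The second of these calls was lost on leaving out any of the arrays KLA plus hBD3 1 or 2, KLA 1 or 2, hBD3 2 or untreated 1, 2 or 3 (highest adjusted p over all settings 0.157). Ctsz, a carboxypeptidase, averaged 11.51 ± 0.14 with KLA plus hBD3, 11.58 ± 0.20 with KLA, 12.04 ± 0.09 with hBD3 and 12.22 ± 0.28 in untreated cells. Unlike for Ctsb, the 2 KLA groups overlapped, at a difference of -0.06 ± 0.14 (95% CI -0.37 to 0.24). Tpp1, a tripeptidyl peptidase, fell by 0.87 ± 0.20 with KLA (adjusted p = 0.00897), and its change with KLA plus hBD3 against KLA was 0.42 ± 0.20 (adjusted p = 0.331).

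Ctsd, the aspartic protease, and Ctsl, another cysteine protease, did not pass with KLA, at -0.21 ± 0.13 and -0.11 ± 0.41. Ctsl had a wide spread that ran with the replicate number in 3 groups. It was 8.90, 8.39 and 8.81 with KLA plus hBD3, 8.91, 8.70 and 7.53 with KLA, 8.96, 8.61 and 7.60 with hBD3 and 9.04, 8.47 and 7.96 in untreated cells, so the array numbered 3 was the lowest in every group but KLA plus hBD3. The same arrays were the lowest of their groups for Gla (alpha-galactosidase A) and Ppt1 (a thioesterase that removes palmitate). Gla was 6.69, 6.83 and 5.77 with KLA against 7.62, 7.99 and 6.90 in untreated cells. At -1.08 ± 0.36 and -0.83 ± 0.28 with KLA, Gla and Ppt1 missed the threshold (adjusted p = 0.0708 and 0.0764). Both passed with the replicate number as a block (adjusted p = 0.00475 and 0.00478 in limma), without hBD3 replicate 3 or untreated replicate 3 alone, and when the arrays numbered 3 of KLA, hBD3 and untreated cells were left out together, a setting chosen after seeing the data.

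Asah1, acid ceramidase, fell by 0.92 ± 0.10 with KLA (adjusted p = 4.57e-05) and fell by 0.50 ± 0.10 with KLA plus hBD3 against hBD3 (adjusted p = 0.0132), a call lost without KLA plus hBD3 replicate 1 or 2 or hBD3 replicate 1 or 2. Its second bright probe gave -0.44 with KLA and did not pass, and the mean of all its detected probes ended each of its calls. Galns and Arsb, sulfatases of glycosaminoglycan breakdown, were at -0.17 ± 0.11 and -0.20 ± 0.19 with KLA and did not pass in any comparison.

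All 3 soluble proteins that are not hydrolases were lower with KLA, beside 11.6% of all genes and 27.7% of bright genes. Npc2, which binds cholesterol in the lysosomal lumen, was 9.30, 8.93 and 9.34 with KLA plus hBD3, 9.21, 8.89 and 9.75 with KLA, 10.48, 10.24 and 10.44 with hBD3 and 10.48, 10.36 and 10.47 in untreated cells. Every array with KLA lay below every array without it, whether or not hBD3 was present. Npc2 fell by 1.15 ± 0.18 with KLA (adjusted p = 0.000732) and fell by 1.19 ± 0.18 with KLA plus hBD3 against hBD3 (adjusted p = 0.00217). The interaction was -0.05 ± 0.25 (95% CI -0.60 to 0.51).

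Grn, progranulin, was 13.55, 13.44 and 13.66 with KLA plus hBD3, 12.93, 12.95 and 12.60 with KLA, 13.69, 13.64 and 13.62 with hBD3 and 13.63, 13.71 and 13.75 in untreated cells. The KLA arrays were the 3 lowest, and the other groups overlapped. Grn fell by 0.87 ± 0.10 with KLA (adjusted p = 5.04e-05), was 0.72 ± 0.10 higher with KLA plus hBD3 than with KLA (adjusted p = 0.00058), and had an interaction of 0.76 ± 0.14 (adjusted p = 0.00889). Psap, prosaposin, the precursor of the saposins that help enzymes reach their lipid substrates, averaged 14.53 ± 0.02 with KLA plus hBD3, 14.06 ± 0.16 with KLA, 14.50 ± 0.07 with hBD3 and 14.51 ± 0.04 in untreated cells (SD, n = 3), a fall of 0.45 ± 0.08 with KLA (adjusted p = 0.00178). The interaction for Psap, 0.48 ± 0.11 (adjusted p = 0.0407), was lost in 15 of 20 other settings, among them the omission of any single array but KLA replicate 2 or hBD3 replicate 3 (highest adjusted p over all settings 0.438).

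Membrane proteins divided into 5 that fell with KLA and 3 that did not pass, beside 11.6% of all genes and 27.7% of bright genes lower. Tpcn1, an ion channel of endosomes and lysosomes, changed more than any other of the 43 genes. Its log2 signal was 9.40, 8.92 and 9.52 with KLA plus hBD3, 7.20, 7.34 and 7.46 with KLA, 10.84, 10.92 and 10.88 with hBD3 and 10.57, 10.32 and 10.84 in untreated cells. The 3 KLA arrays lay more than 1 log2 unit below every other array, and KLA plus hBD3 lay between them and the arrays without KLA. Tpcn1 fell by 3.25 ± 0.16 with KLA (9.50-fold, adjusted p = 8.84e-08) and fell by 1.60 ± 0.16 with KLA plus hBD3 against hBD3 (3.03-fold, adjusted p = 0.000134). KLA plus hBD3 was 1.95 ± 0.16 above KLA (3.86-fold, adjusted p = 1.65e-05), and the interaction was 1.65 ± 0.22 (adjusted p = 0.00173). Across the other settings the KLA change ranged from -3.89 to -1.35 and the interaction from 0.60 to 2.01. Its other probes, dimmer at means of 6.43, 6.38 and 5.99, were also lower with KLA, at -1.08, -0.56 and -0.51. By these probes KLA plus hBD3 was 0.50, 0.38 and 0.05 above KLA, and only the 0.38 passed (adjusted p = 0.0157). Their interactions, 0.54, 0.19 and 0.05, did not pass.

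Lamp1, an abundant glycoprotein of the lysosomal membrane, was 13.58, 13.65 and 14.01 with KLA plus hBD3, 13.02, 13.03 and 13.30 with KLA, 13.71, 13.73 and 13.85 with hBD3 and 14.03, 14.00 and 13.99 in untreated cells. It fell by 0.89 ± 0.11 with KLA (adjusted p = 0.000142) and was 0.63 ± 0.11 higher with KLA plus hBD3 than with KLA (adjusted p = 0.00412). Lamp2, its partner glycoprotein, averaged 11.28 ± 0.15 with KLA plus hBD3, 11.59 ± 0.09 with KLA, 11.64 ± 0.11 with hBD3 and 11.64 ± 0.07 in untreated cells (SD, n = 3). Lamp2 was at -0.06 ± 0.09 with KLA and was lower in KLA plus hBD3 than in untreated cells, by -0.37 ± 0.09 (adjusted p = 0.0458), a call that 15 of 21 other settings did not keep. Single arrays whose omission ended it were KLA plus hBD3 2 or 3, KLA 1 or 2, hBD3 1 or 2 and untreated 1, 2 or 3 (highest adjusted p over all settings 0.191).

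Laptm5, a lysosomal protein of blood cells that acts on receptor turnover, and Cd63, a tetraspanin, fell by 0.57 ± 0.06 and 0.45 ± 0.09 with KLA (adjusted p = 4.49e-05 and 0.00307). Both were higher with KLA plus hBD3 than with KLA, by 0.52 ± 0.06 and 0.53 ± 0.09 (adjusted p = 0.000256 and 0.0022). For Laptm5 every KLA array, at 13.69, 13.67 and 13.64, lay below the lowest array of the other groups, which was 14.15. The interaction for Laptm5, 0.40 ± 0.09 (adjusted p = 0.028), was lost in 12 of 20 other settings, among them the omission of any KLA array, of KLA plus hBD3 3, of hBD3 2 or 3 or of untreated 2 or 3 (highest adjusted p over all settings 0.689). Other bright probes of Cd63 gave -0.14 and 0.24 with KLA, and the mean of its detected probes did not pass. Npc1, which exports cholesterol handed over by Npc2, fell by 0.77 ± 0.19 with KLA (adjusted p = 0.0177). That call was lost without KLA replicate 1 and without untreated replicate 2 or 3 (highest adjusted p over all settings 0.098). The second bright probe of Npc1 gave -1.35 with KLA (adjusted p = 0.00144). Another Npc1 probe, of mean log2 signal 6.79 and detected in all 12 arrays, was higher with KLA by 0.60 ± 0.15 (adjusted p = 0.02). Scarb2, the receptor that carries glucocerebrosidase to lysosomes, and Mcoln1, a calcium channel of the lysosome, were at -0.26 ± 0.09 and -0.20 ± 0.11 with KLA and did not pass in any comparison.

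**Figure D3:**
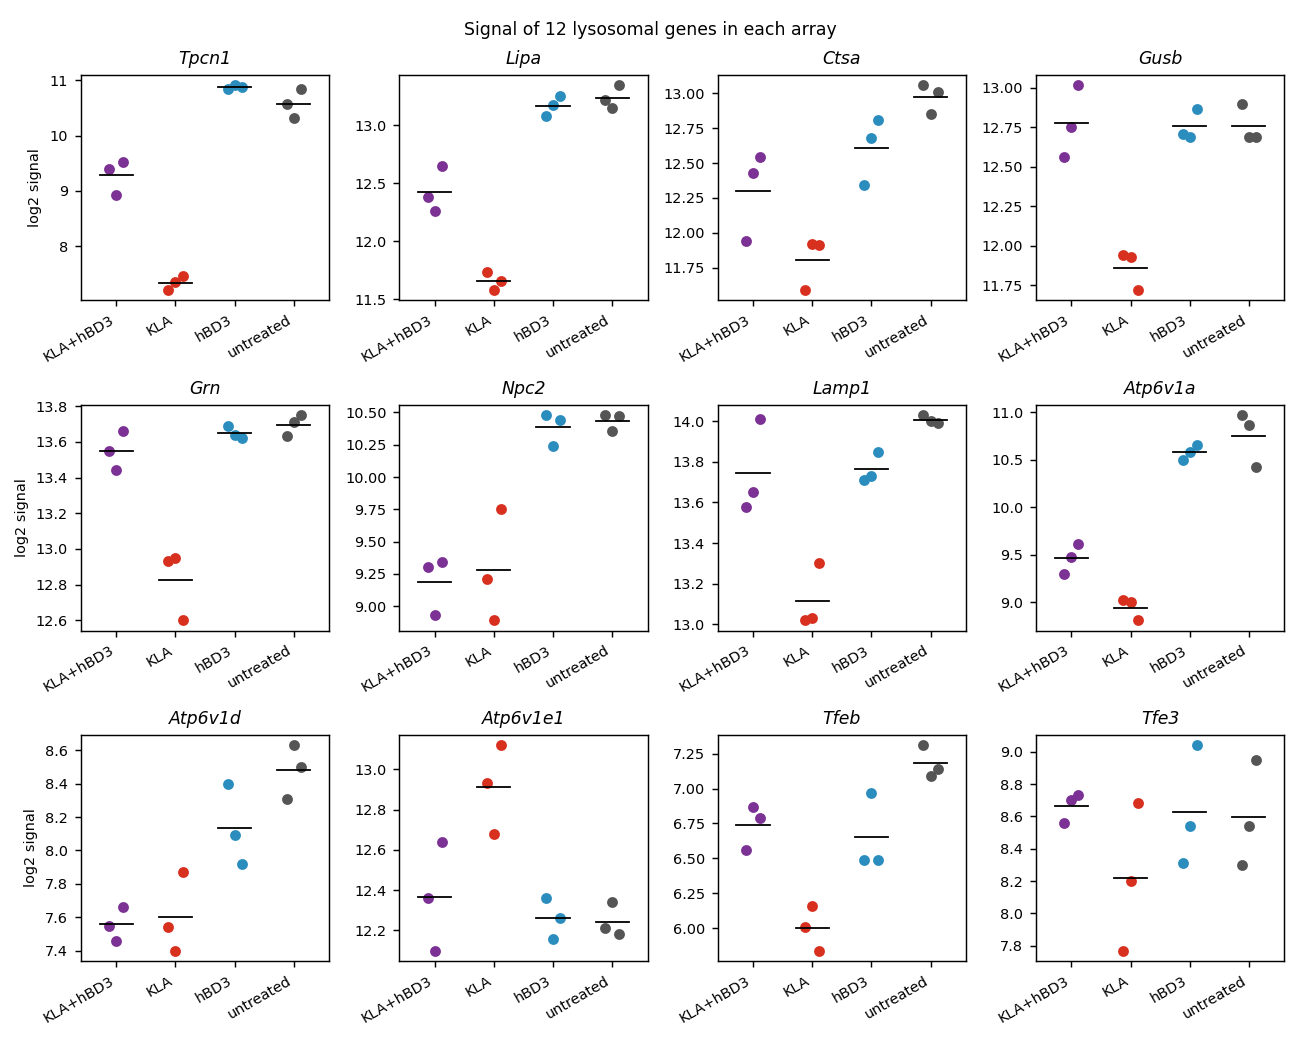
Log2 signal of 12 lysosomal genes in each of the 12 arrays, 3 per group, with a line at the group mean. For Tpcn1, Lipa and Atp6v1a the KLA plus hBD3 arrays lie between the KLA arrays and the arrays without KLA, for Gusb and Grn they overlap the arrays without KLA, and for Npc2 and Atp6v1d they overlap the KLA arrays.

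Of the 12 measured subunits and accessory proteins of the proton pump, 5 were lower and 1 was higher with KLA (median -0.23), beside 11.6% and 9.70% of all genes. Of these 12, 11 were bright, and 27.7% of bright genes were lower. In the V1 sector, Atp6v1a, the subunit that splits ATP, fell most. It was 9.30, 9.48 and 9.61 with KLA plus hBD3, 9.02, 9.0 and 8.81 with KLA, 10.50, 10.58 and 10.65 with hBD3 and 10.97, 10.86 and 10.42 in untreated cells. Atp6v1a fell by 1.80 ± 0.13 with KLA (3.49-fold, adjusted p = 1.94e-06) and fell by 1.11 ± 0.13 with KLA plus hBD3 against hBD3 (2.16-fold, adjusted p = 0.000481). Its rise of 0.52 ± 0.13 from hBD3 on top of KLA (adjusted p = 0.0355) was lost in 10 of 21 other settings, among them the omission of KLA plus hBD3 2 or 3, of any KLA array or of hBD3 1 or 2 (highest adjusted p over all settings 0.40). Its interaction did not pass at 0.69 ± 0.19 (adjusted p = 0.0761).

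Atp6v1d, part of the central stalk that turns in the pump, was 7.55, 7.46 and 7.66 with KLA plus hBD3, 7.54, 7.40 and 7.87 with KLA, 8.40, 8.09 and 7.92 with hBD3 and 8.31, 8.63 and 8.50 in untreated cells. Both groups with KLA lay below both groups without it. Atp6v1d fell by 0.88 ± 0.14 with KLA and fell by 0.93 ± 0.14 with KLA plus hBD3 against untreated cells (adjusted p = 0.000957 and 0.00361), and the difference between the groups given KLA was -0.05 ± 0.14 (95% CI -0.36 to 0.27). Against hBD3 alone, KLA plus hBD3 was at -0.58 ± 0.14 (adjusted p = 0.0365), a call lost in 9 of 21 other settings (highest adjusted p over all settings 0.147). With hBD3 alone Atp6v1d was at -0.35 ± 0.14 from untreated cells (adjusted p = 0.636). Atp6v1c1, which joins the V1 to the V0 sector, fell by 0.86 ± 0.16 with KLA (adjusted p = 0.00244). Atp6v1b2, the partner of the ATP-splitting subunit, was at -0.36 ± 0.11 with KLA (adjusted p = 0.0552, or 0.0211 with the replicate number as a block), and Atp6v1h, a regulatory subunit, at 0.24 ± 0.09 (adjusted p = 0.134).

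Atp6v1e1, of the outer stalk, was the single gene called higher with KLA, where 6 of the 43 had a change above 0. Without untreated replicate 2 or KLA plus hBD3 replicate 3 there were 2 such calls, the other being Atp6v0b or Atp6v1h. Its signal was 12.36, 12.10 and 12.64 with KLA plus hBD3, 12.93, 12.68 and 13.12 with KLA, 12.36, 12.16 and 12.26 with hBD3 and 12.21, 12.34 and 12.18 in untreated cells. The KLA arrays were the 3 highest of the 12. Atp6v1e1 rose by 0.67 ± 0.14 with KLA (1.59-fold, adjusted p = 0.00465), a call lost under median centring, where the change was still above 0. With KLA plus hBD3 it was lower than with KLA, by -0.54 ± 0.14 (adjusted p = 0.0318), which was lost in 9 of 21 other settings, among them the omission of KLA plus hBD3 1 or 2 or KLA 1 or 3 (highest adjusted p over all settings 0.143).

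In the V0 sector, Atp6v0e, a small membrane subunit, fell by 0.72 ± 0.11 with KLA (adjusted p = 0.000448). It was 12.52, 12.75 and 12.55 with KLA plus hBD3, 12.26, 12.20 and 12.26 with KLA, 12.72, 12.65 and 12.78 with hBD3 and 13.14, 12.70 and 13.05 in untreated cells. Its interaction, 0.61 ± 0.15 (adjusted p = 0.0478), was lost in 16 of 20 other settings, among them the omission of any single array but untreated replicate 2 (highest adjusted p over all settings 0.458). Atp6v0b, a subunit of the proton-carrying ring, was at 0.36 ± 0.14 with KLA (adjusted p = 0.124). Atp6v0d1 is the widely expressed subunit that links the ring to the stalk. By the probe used it was 11.53, 11.96 and 11.62 with KLA against 11.72, 11.93 and 11.91 in untreated cells, which overlapped (-0.15 ± 0.13). A probe of nearly equal mean signal (11.77 beside 11.80) was called lower with KLA, at -0.59 ± 0.13 (adjusted p = 0.00777 in limma). Dimmer probes of Atp6v0d1 gave -0.66 ± 0.38 and -0.93 ± 0.58 and did not pass. Atp6v0d2, the form of that subunit known from osteoclasts, was detected in no array and lay between 5.52 and 5.88 in all 12. Of the accessory proteins, Atp6ap1 fell by 0.31 ± 0.08 with KLA (adjusted p = 0.0189), which was lost without KLA replicate 1 or untreated replicate 1 or 3 (highest adjusted p over all settings 0.0835). Atp6ap2, known also as the prorenin receptor, was at 0.01 ± 0.15.

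**Figure D4:**
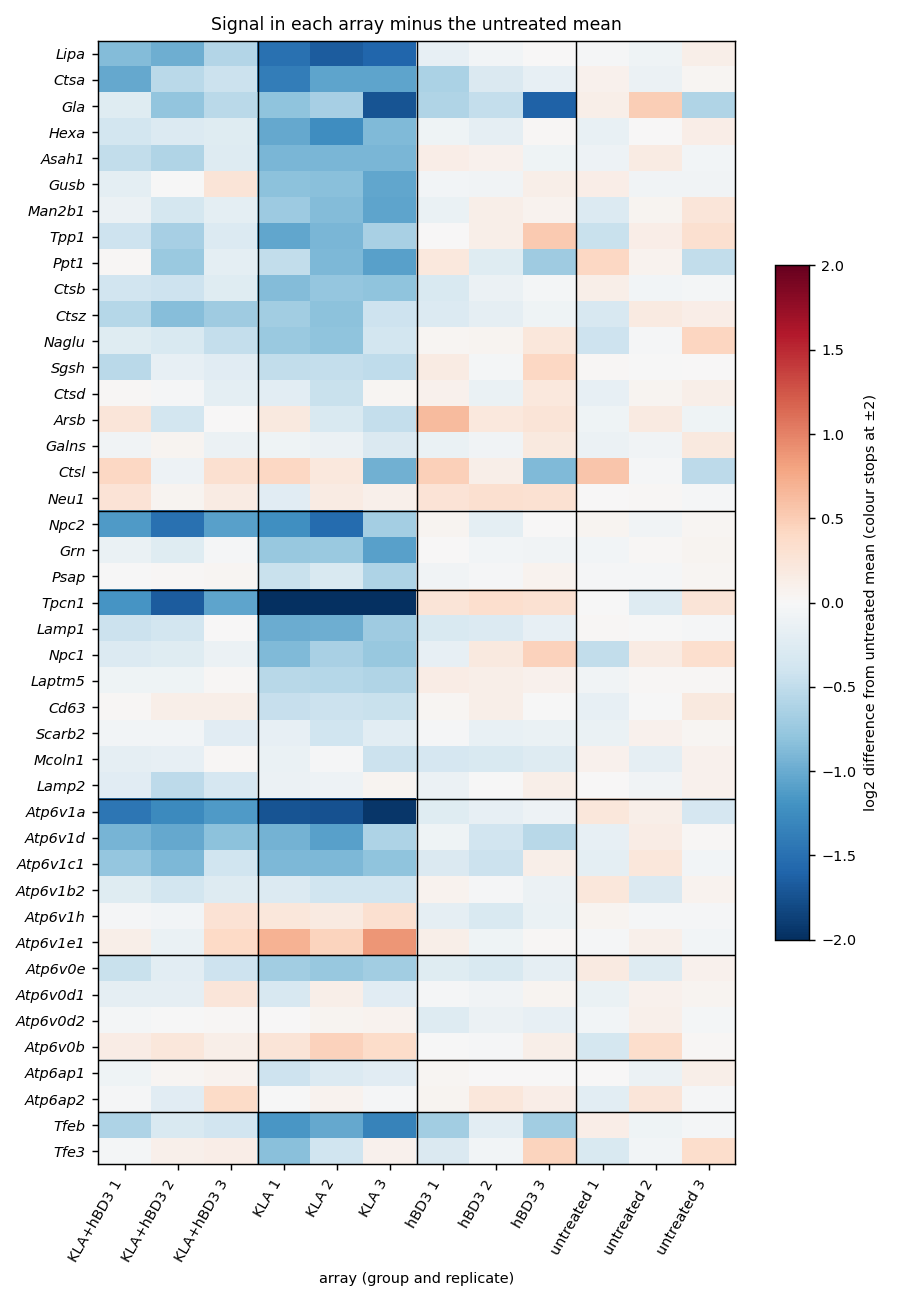
Log2 signal of the 43 lysosomal genes in each of the 12 arrays minus the mean of the untreated arrays, with genes ordered by class and by the KLA change within it. The 3 KLA columns are blue for most hydrolases and for Npc2, Tpcn1 and Atp6v1a, and red for Atp6v1e1.

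Of the regulators, Tfeb passed with KLA and Tfe3 did not. Tfeb was 6.56, 6.87 and 6.79 with KLA plus hBD3, 6.01, 6.16 and 5.84 with KLA, 6.49, 6.97 and 6.49 with hBD3 and 7.31, 7.09 and 7.14 in untreated cells. The probe was detected in none of the KLA arrays and in all 9 others. KLA arrays were thus the lowest, untreated arrays the highest, and the groups with hBD3 lay between and overlapped each other. Tfeb averaged 6.00 with KLA and 7.18 in untreated cells, a fall of at least 1.89-fold (log2 change -1.18 ± 0.14, adjusted p = 7.31e-05). With KLA plus hBD3 it was at least 1.39-fold above KLA (adjusted p = 0.00531) and 0.09 ± 0.14 from hBD3 alone (95% CI -0.21 to 0.39). The interaction was at least 1.01 on the log2 scale with the KLA arrays at the lowest detected signal (fitted at 1.27 ± 0.19 from the measured values, adjusted p = 0.00361).

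Tfe3 was 8.56, 8.70 and 8.73 with KLA plus hBD3, 7.77, 8.20 and 8.68 with KLA, 8.31, 8.54 and 9.04 with hBD3 and 8.30, 8.54 and 8.95 in untreated cells. All 4 groups overlapped, and Tfe3 was at -0.38 ± 0.24 with KLA (95% CI -0.90 to 0.14) and did not pass in any comparison. Its difference of KLA plus hBD3 from KLA was 0.44 ± 0.24 (adjusted p = 0.436 in limma). That difference passed with the replicate number as a block (adjusted p = 0.0402), although the numbers were not read as pairing the arrays of KLA plus hBD3. It also passed without the arrays numbered 3 of KLA, hBD3 and untreated cells, a setting chosen after seeing the data (lowest adjusted p over all settings 0.00675).

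Bright probes of the same gene mostly gave the same direction with KLA. Of 13 genes with more than 1 probe of mean log2 signal of at least 7, all of these bright probes had 1 sign for 10. Every bright probe was also called lower only for Atp6v1c1, Ctsz, Lipa, Man2b1 and Npc1. Some probes of the same sign were imprecise, such as a probe of Asah1 at -0.44 ± 0.77 and a probe of Ctsa at -1.02 ± 1.16. Npc1 was among the 10, although its probe of mean 6.79, below that signal, was called higher with KLA. Both probes of Lipa gave -1.58 and -1.51, and the 4 bright probes of Ctsa lay between -1.17 and -0.57. Cd63, Lamp2 and Atp6ap2 had probes of both signs. For Atp6v0d1, which did not pass by its brightest probe, 1 of the 4 probes was lower, at -0.59 with a nearly equal mean signal.

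**Figure D5:**
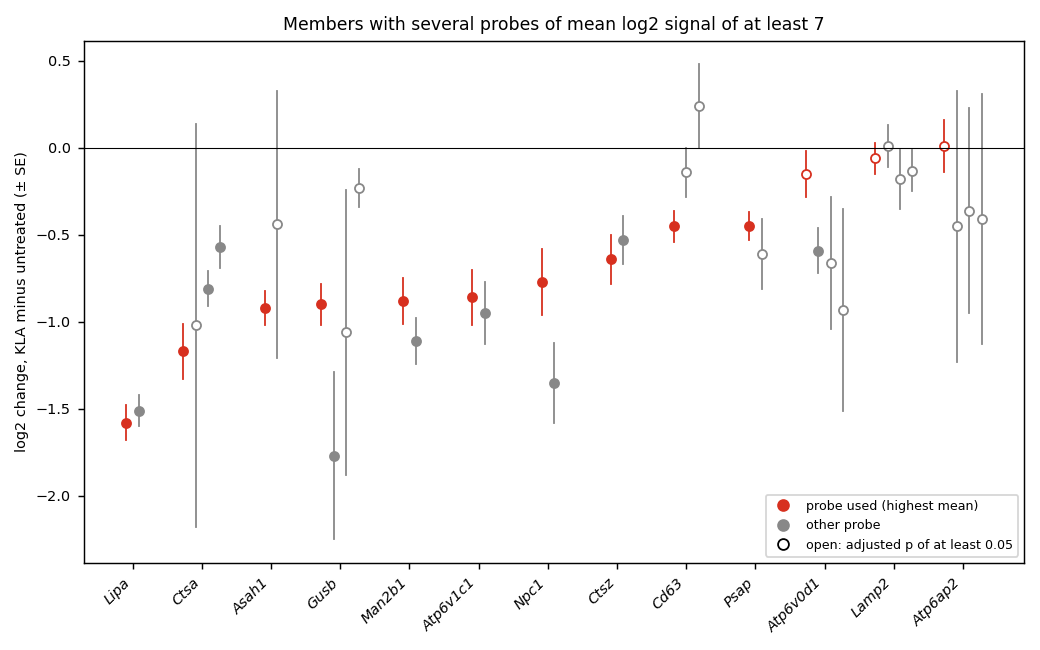
Log2 change with KLA against untreated cells (with SE) for every probe of mean log2 signal of at least 7, in the 13 genes that had more than 1. Red points are the probes used; in 10 genes all points lie on 1 side of 0, and in Cd63, Lamp2 and Atp6ap2 they lie on both.

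Other genes of the lysosome and autophagy, taken from a list of 117 of which 111 had a value, moved in both directions with KLA: 50 were lower and 9 higher, with a median of -0.33, beside the 11.6% and 9.70% of all genes. The largest falls were those of Pla2g15, a lysosomal phospholipase, at -2.06 ± 0.13 (adjusted p = 6.97e-07), Manba, beta-mannosidase, at -1.99 ± 0.08 (adjusted p = 3.38e-08), Plekhm1, an adaptor for lysosome fusion, at -1.85 ± 0.13 (adjusted p = 1.26e-06), and Slc17a5, the exporter of sialic acid, at -1.73 ± 0.09 (adjusted p = 2.16e-07). Those that rose most were Ctsc, the cathepsin that activates serine proteases, by 1.47 ± 0.11 (adjusted p = 2.15e-06), Sqstm1, an autophagy receptor, by 1.28 ± 0.34 (adjusted p = 0.0241), Mcoln2, a relative of Mcoln1, by 1.20 ± 0.16 (adjusted p = 0.00018), and Atg16l1, which helps build autophagosomes, by 0.85 ± 0.14 (adjusted p = 0.00103). Manba and Slc17a5 were among those with the largest rise from KLA to KLA plus hBD3, at 1.16 ± 0.08 and 1.18 ± 0.09 (adjusted p = 7.93e-06 and 1.65e-05). Ctsc was lower with KLA plus hBD3 than with KLA, at -0.64 ± 0.11 (adjusted p = 0.00306). Of the 111 genes, 20 were higher and 3 lower with KLA plus hBD3 than with KLA, beside 5.85% and 4.97% of all genes. Tfec, a relative of Tfeb, was at -0.68 ± 0.15 (adjusted p = 0.0133). Of bright genes 27.7% were lower with KLA, and 16.3% were higher with KLA plus hBD3 than with KLA. The 111 genes were not split by brightness.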

How the data were processed

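Signals of Illumina arrays were read in 12 samples of BMDMs. The authors exported probe intensity on a linear scale from BeadStudio, each beside a p-value for detection over negative beads, and deposited this table with a second one of intensity after quantile normalization across arrays. Each of the 12 columns before normalization, once quantile normalized, equalled 1 sample of the deposited normalized table within 0.1%, with the group named in its heading (LPS was read as KLA). Versions of the authors' tools were not given in the sources used here.

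Here log2 of the normalized intensity was fitted for all 45281 probes and 12 arrays with limma 3.58.1 in R 4.3.3, as a group-means model (8 residual and 3.66 prior degrees of freedom). Tests were two-sided, p-values were adjusted (Benjamini-Hochberg) within a comparison across all probes, and a gene was called at an adjusted p under 0.05. SE and confidence intervals are those of limma, and SD is that between arrays. Of the probes, 34885 named 1 gene, 18 several and 10378 none. For a probe that a whole group failed to detect (detection p of 0.01 or more), the lowest detected signal of an array took the place of a value below it, and the fold is given as a lower bound. The fit was tested on simulated data with noise drawn independently for each array. That test thus did not cover correlation between arrays. Deviations from the group means correlated at 0.273 to 0.709 in all 9 same-numbered pairs among KLA, hBD3 and untreated cells, so that replicate numbers were read, from the data and not from the labels, as pairing these arrays, and the blocked value is given beside a call that it changed. They correlated at -0.066 to 0.281 in the 9 pairs with KLA plus hBD3, of which 3 were over 0.1, and were not read as pairing those. The members and lists were chosen with earlier results of these data known; values by array were given for the largest called changes of each class, the regulators and both forms of subunit d. Alternatives were median centring, neqc (offset 16) on the unnormalized intensity, detected probes only, the mean of all detected probes of a gene, an intensity trend, a replicate block, only the groups compared, KLA replicate 1 alone and the omission of arrays. Promoter windows came from RefSeq (GRCm38.p6). The number of arrays limits the precision.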

Additional observations from a re-analysis of the deposited data

Results flagged for a closer look

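The effect of KLA differed between cells with and without hBD3, by the test of the interaction in limma, for 11 lysosomal genes. All 11 were higher, beside 2.81% of all genes and 8.31% of bright genes. Only Tpcn1 and Tfeb passed in all 20 other settings. The calls of Psap, Laptm5 and Atp6v0e were lost in 15, 12 and 16 of these settings. The interaction, on the log2 scale, was 0.62 for Ctsb, 0.83 for Hexa, 0.92 for Gusb and 0.84 for Lipa among the hydrolases. It was 0.48 for Psap and 0.76 for Grn, and 0.87 for Lamp1, 0.40 for Laptm5 and 1.65 for Tpcn1 among the membrane proteins. Atp6v0e of the proton pump had an interaction of 0.61 and the regulator Tfeb one fitted at 1.27, which is at least 1.01 with the KLA arrays, none of which detected its probe, at the lowest detected signal.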

How the results depend on the processing

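Of 26 genes called with KLA against untreated cells, 19 passed in all 21 other settings (20 for interactions, which need all groups), as did 5 of 11 for KLA plus hBD3 against untreated cells (Lipa, Npc2, Tpcn1, Atp6v1a and Atp6v1d), 4 of 8 against hBD3 (the same without Atp6v1d), 1 of 16 against KLA (Tpcn1) and 2 of 11 interactions (Tpcn1 and Tfeb). Median centring changed most. It gave 0 genes higher with KLA (median -0.92). For KLA plus hBD3 it gave 28 lower than untreated cells (median -0.76) and 1 higher and 0 lower than KLA (median 0.20). Against hBD3 the median was -0.44. Under the same scaling 45.2% of bright genes were lower with KLA plus hBD3 than in untreated cells (median -0.61). The other bright-gene medians were -0.65 with KLA, and for KLA plus hBD3 0.02 against KLA and -0.34 against hBD3. Median centring also gave 2 interactions and a median of -0.27 for hBD3 alone, where the median of bright genes was -0.28. Under it Psap stood at -0.31 and Atp6v0b at -0.42 in KLA plus hBD3 against untreated cells, the opposite sign to quantile normalization. The mean of all detected probes turned Asah1 to 0.16 against untreated cells and 0.12 against hBD3. The gene lower with KLA plus hBD3 than with KLA, Atp6v1e1, was not called with neqc, with only the groups compared, with KLA replicate 1 alone or without the arrays numbered 3 (0 each, the last added after seeing the data). KLA replicate 1 alone, whose spread is taken from the other groups, gave 8 genes higher with KLA plus hBD3 than with KLA and 5 interactions. The causes were not tested beyond these settings.

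Leaving out single arrays gave 1 to 2 genes higher with KLA, 5 to 11 lower with KLA plus hBD3 than in untreated cells, 5 to 9 lower than with hBD3, and 0 to 1 lower than with KLA. With 1 array left out of a group, the spread is pooled over all groups.

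With the replicate number as a block, Gla, Ppt1 and Atp6v1b2 were also lower with KLA (28 genes), and no other call of KLA or hBD3 against untreated cells changed. In comparisons with KLA plus hBD3, whose arrays the numbers were not read as pairing, 2 genes were lower than with KLA under the block. Over all comparisons 0 calls were lost and 12 gained. The methods name a pair of BeadChips for this time point, but nothing used here ties an array to a chip, so that chip could not be fitted as a block.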
